A study of Mus musculus with 3 samples.

Results

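The 38 neuropeptide and peptide hormone genes described here were selected by name, as a list of mouse precursor and granin genes. Of these, 36 were matched by gene symbol to an identifier among the 36809 gene identifiers present in the brain, testis and liver tables, and Kiss1 and Lhb were not matched and have no value here. Neuropeptides and peptide hormones are cut from larger precursor proteins that travel through the regulated secretory pathway. Prohormone convertases cut the precursors inside dense-core vesicles, carboxypeptidase E trims the fragments, and granins help to form the vesicles. In brain these peptides mark classes of neurons, in the hypothalamus they govern the pituitary, and in testis several precursors are known from germ cells and Leydig cells.

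Gene abundance was measured by strand-specific sequencing of polyadenylated RNA from brain, testis and liver of male C57BL/6 mice aged 11 weeks, with 1 library per tissue. No genotype or treatment other than the strain is given in the labels, and neither the number of animals behind a library nor the brain regions taken is stated. Values are FPKM, fragments per kilobase of transcript scaled to library size, with the lower and upper bound deposited beside each, given below as the interval. There were no replicates, so the spread between animals is unknown and no test was run. In bulk tissue, fewer cells of a type and less RNA per cell cannot be told apart.

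The tissue labels were checked against marker genes. The 6 neuron markers stood between 68.2 and 933 FPKM in brain, against at most 0.185 FPKM in testis and 0.583 FPKM in liver, and the highest were Snap25, Syp and Stmn3. The 6 germ cell markers stood between 587 and 14339 FPKM in testis, led by Tnp1, Prm2 and Ldhc, and the 6 hepatocyte markers between 1888 and 20975 FPKM in liver, led by Alb, Trf and Serpina1e; of these 6, Ttr and Trf were also at 1625 and 641 FPKM in brain. The same germ cell markers were present in brain at 0.0653% to 0.109% of their testis level. The neuron markers reached at most 0.144% of their brain level in testis. Fragments implied by the widths of the intervals came, in units of 1e6, to 31.8 in brain, 40.9 in testis and 86.3 in liver. At 1 to 2 FPKM the upper bound lay a median of 18.3% above the value in brain, and 19.4% and 12.6% above it in testis and liver.

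The peptide genes were chiefly brain genes in these libraries. At 1 FPKM or more stood 23 of the 36 members in brain, 8 in testis and 1 in liver, where the background over all genes was 40.3% for brain, 42.9% for testis and 30.3% for liver. Among protein-coding genes the background was 58.5% for brain, 57.9% for testis and 43.9% for liver. The brain share of the members, 63.9%, was near this protein-coding background. Their testis share of 22.2% and liver share of 2.78% lay well below it. By this count the members stood out by their low detection outside brain. Listed at 0 were 3 members in brain, 11 in testis and 27 in liver. Their FPKM values added up to 1124 in brain, 191 in testis and 1.66 in liver, which was 0.326%, 0.0336% and 0.000271% of the protein-coding FPKM of brain, testis and liver in that order. Calls required at least a 4-fold difference on the log2(FPKM + 1) scale together with intervals that did not overlap. On this scale a gene listed at 0 in the other library had to reach 3 FPKM to be called, so differences of low genes are understated.

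Of the 36 members 16 were called higher in brain than in testis, which is 44.4%, where the background over all genes was 7.19% and over protein-coding genes 10.4%. A single member, Pomc, was called lower in brain than in testis, where the background was 11.0% over all genes and 14.2% over protein-coding genes. Against liver 18 members were called higher in brain, a share of 50%, with a background of 9.15% over all genes and 13.7% over protein-coding genes. None was called lower in brain than in liver, where the background was 2.79% over all genes and 4.55% over protein-coding genes. Between testis and liver 5 members were called higher in testis, a share of 13.9% that lay below the protein-coding background of 20.2% and near that of 15.2% over all genes, and none was called lower, with a background of 3.82% over all genes and 5.96% over protein-coding genes. The median log2 difference of the members was 1.56 for brain minus testis, 2.20 for brain minus liver and 0.09 for testis minus liver, beside medians over all genes of 0, 0.01 and 0.02. After scaling by the FPKM sum over all genes, 8 members were called higher and 5 lower in brain than in testis, where the background over all genes was 1.93% higher and 28.4% lower. With the protein-coding FPKM sum the counts were 17 higher and 0 lower, with a background of 10.6% and 9.19%. With the median ratio they were 16 and 1, with a background of 6.72% and 10.7%. The plot of members by tissue shows the values behind these counts.

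**Figure D1:**
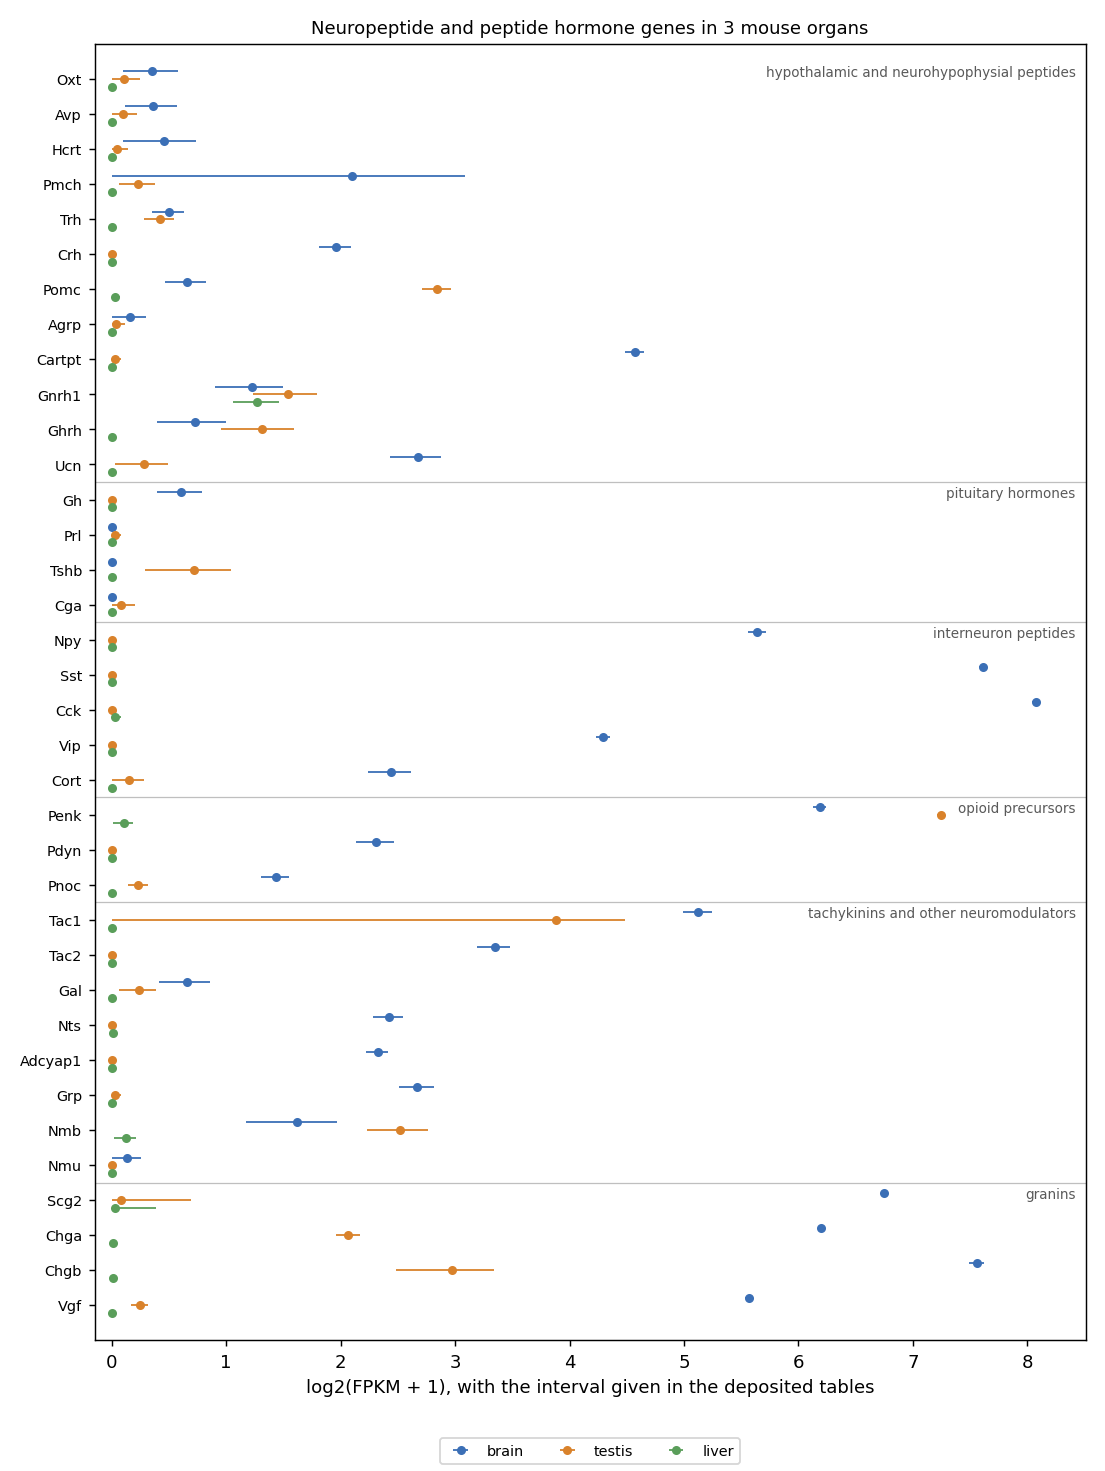
Level of each of the 36 matched members in brain (blue), testis (orange) and liver (green), as log2(FPKM + 1) on the horizontal axis, grouped by role from top to bottom; points are the single library of a tissue and bars its deposited interval. Interneuron peptides and granins stand far to the right in brain, while Penk and Pomc are further right in testis (Penk 71.8 FPKM in brain and 150.3 FPKM in testis).

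Levels within brain spanned more than the members' intervals. The order began with Cck at 268 FPKM, followed by Sst at 195, Chgb at 187, Scg2 at 107, Chga at 72.6, Penk at 71.8, Npy at 48.8 and Vgf at 46.3 FPKM. These 8 genes held 88.7% of the members' FPKM in brain. The neighbours Sst and Chgb, Chga and Penk, and Npy and Vgf had overlapping intervals and could not be ordered. Below them came Tac1 at 33.9, Cartpt at 22.8, Vip at 18.6 and Tac2 at 9.16 FPKM, each apart from the next. From Ucn at 5.38 FPKM down to Gnrh1 at 1.34 FPKM each member overlapped the next. This run passes through Pmch, a low-data estimate with an interval from 0 to 7.49 FPKM. Its neighbours Pdyn (3.40 to 4.53 FPKM) and Crh (2.51 to 3.25 FPKM) did not overlap each other. In testis the order was another: Penk alone held 78.8% of the members' FPKM, and Tac1, Chgb, Pomc and Nmb followed at 13.7 to 4.74 FPKM with overlapping neighbours.

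Promoter sequence was available from RefSeq (GRCm38.p6) for 28 of the 36 matched members, as windows of 300 bases from 250 before to 50 after a gene's start. The cAMP response element, the palindrome TGACGTCA bound by the factor CREB in the Sst promoter, was found in 5 of these 28 members (17.9%) and in 549 of the 27025 genes with a window (2.03%). The 5 members were Sst, Scg2, Chgb, Cartpt and Ucn. All 5 were among the 16 members called higher in brain than in testis, and also among the 18 called higher in brain than in liver. Over all 36 members those calls were 44.4% and 50%, and the share among the 28 with a window was not counted. A link between the element and the brain level was not tested. The shorter site TGACG, searched on both strands and contained in every full element, was found in 17 of the 28 (60.7%) and in 23% of all genes with a window. The TATA motif TATAAA, also searched on both strands, was found in 10 of the 28 (35.7%) and in 15.7% of all genes with a window. These matches describe letters in a window and not bound sites. The 5 windows are shown, 5′ to 3′ on the strand of the gene, because these members hold the element and were called higher in brain, at levels from 5.38 to 195 FPKM; capitals mark TGACGTCA. The element began 48 bases before the gene's start in Sst, 68 in Scg2, 72 in Chgb, 112 in Cartpt and 44 in Ucn. The windows lie on the minus strand at chr16:23890795-23891094 for Sst, chr1:79439977-79440276 for Scg2, chr13:99900634-99900933 for Cartpt and chr5:31138846-31139145 for Ucn, and on the plus strand at chr2:132781392-132781691 for Chgb.
Sst: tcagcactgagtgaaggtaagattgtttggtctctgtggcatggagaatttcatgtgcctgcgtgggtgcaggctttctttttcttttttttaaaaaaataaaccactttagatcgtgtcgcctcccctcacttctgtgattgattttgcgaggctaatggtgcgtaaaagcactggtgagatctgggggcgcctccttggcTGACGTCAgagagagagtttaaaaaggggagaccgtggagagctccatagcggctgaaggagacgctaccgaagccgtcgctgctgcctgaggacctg
Scg2: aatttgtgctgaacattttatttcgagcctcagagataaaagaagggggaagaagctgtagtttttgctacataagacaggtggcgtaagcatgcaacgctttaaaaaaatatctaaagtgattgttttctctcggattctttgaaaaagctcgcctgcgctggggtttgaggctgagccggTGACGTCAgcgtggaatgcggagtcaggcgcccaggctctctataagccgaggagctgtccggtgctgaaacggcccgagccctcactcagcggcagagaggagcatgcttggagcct
Chgb: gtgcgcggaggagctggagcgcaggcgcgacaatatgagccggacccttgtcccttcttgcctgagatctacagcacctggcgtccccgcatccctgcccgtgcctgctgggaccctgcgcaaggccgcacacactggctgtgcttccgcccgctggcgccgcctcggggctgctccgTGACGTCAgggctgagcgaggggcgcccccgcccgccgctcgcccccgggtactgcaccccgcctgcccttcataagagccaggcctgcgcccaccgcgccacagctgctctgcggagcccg
Cartpt: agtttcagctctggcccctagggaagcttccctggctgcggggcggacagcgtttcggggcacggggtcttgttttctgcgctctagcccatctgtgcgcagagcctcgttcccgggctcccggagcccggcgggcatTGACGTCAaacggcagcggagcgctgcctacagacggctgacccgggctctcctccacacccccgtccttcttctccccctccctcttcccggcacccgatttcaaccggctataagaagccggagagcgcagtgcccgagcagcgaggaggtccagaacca
Ucn: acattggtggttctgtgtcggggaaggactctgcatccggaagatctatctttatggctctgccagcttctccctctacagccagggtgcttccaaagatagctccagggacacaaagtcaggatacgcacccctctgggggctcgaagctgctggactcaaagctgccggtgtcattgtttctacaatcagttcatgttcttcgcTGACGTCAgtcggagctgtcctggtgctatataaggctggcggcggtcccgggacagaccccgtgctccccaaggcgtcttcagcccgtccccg

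The 5 genes grouped as interneuron peptides had the largest summed level of the role groups in brain, 535 FPKM beside 413 FPKM over 4 granins. Cck alone held 268 FPKM of that sum. All 5 were called higher in brain than in both other organs. The cell types and brain regions behind these levels were not tested. Cck, the precursor of cholecystokinin, an abundant peptide of cortex and hippocampus, was at 268 FPKM (interval 263 to 274) in brain, listed at 0 in testis and at 0.0230 FPKM in liver. Sst, the precursor of somatostatin, which marks a class of dendrite-targeting interneurons, was at 195 FPKM (189.6 to 199.8) in brain and listed at 0 in testis and liver. These levels placed Cck at rank 128 and Sst at rank 222 among 20147 protein-coding genes in brain. Npy, whose peptide neuropeptide Y damps transmitter release, was at 48.8 FPKM (46.1 to 51.5) in brain and listed at 0 in both others. Vip, the marker of interneurons that inhibit other interneurons, was at 18.6 FPKM (17.8 to 19.5) in brain and likewise listed at 0 in both others. Cort, the precursor of the somatostatin-like cortistatin, was lower, at 4.43 FPKM in brain against 0.109 FPKM in testis, and was listed at 0 in liver. In no case did the brain interval meet those of the other organs. The smallest log2 difference of the group was 2.29, for Cort in brain minus testis.

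The 4 granins, acidic proteins packed with peptides in dense-core vesicles, were each called higher in brain than in testis and liver, and they differed in what was left outside brain. Chgb, chromogranin B, was at 187 FPKM (179 to 196) in brain, 6.85 FPKM (4.59 to 9.11) in testis and 0.00970 FPKM in liver. Chga, chromogranin A, was at 72.6 FPKM (71.1 to 74.1) in brain, 3.19 FPKM (2.88 to 3.50) in testis and 0.00733 FPKM in liver. Chga and Chgb were thus 22.7-fold and 27.4-fold higher in brain than in testis, and both were also called higher in testis than in liver. For Chga the log2 difference of testis minus liver of 2.06 became 1.94 with the protein-coding sum and 1.91 with the median ratio, below the minimum. Scg2, secretogranin II, the source of secretoneurin, was at 107 FPKM in brain, and its testis and liver values of 0.0598 and 0.0173 FPKM were marked as low-data estimates with intervals from 0 to 0.612 and 0 to 0.306. Vgf, a nerve growth factor-induced precursor, was at 46.3 FPKM (45.3 to 47.3) in brain against 0.185 FPKM (0.121 to 0.248) in testis and was listed at 0 in liver. As a share of the brain level the testis level was 4.40% for Chga and 3.65% for Chgb, against 0.0560% for Scg2 and 0.399% for Vgf. The neuron markers reached at most 0.144% of their brain level in testis, a share that Chga, Chgb and Vgf exceeded. The listed Scg2 value lay below that share, but its low-data interval from 0 to 0.612 FPKM in testis spans it. Members outside the granins also exceeded it on few implied testis fragments, among them Ucn at 4.01% from 5, Cort at 2.46% from 4 and Grp at 0.364% from 1. The cells behind these testis levels were not tested.

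**Figure D2:**
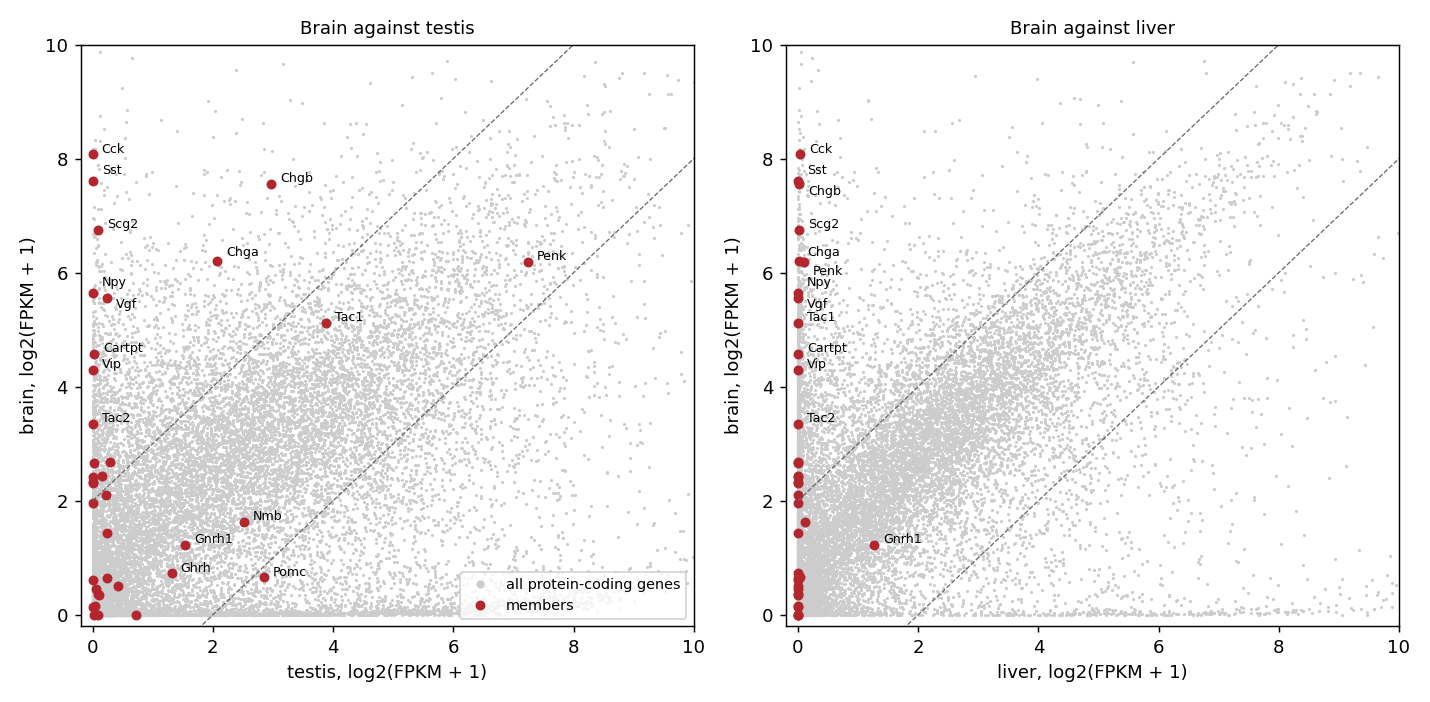
Brain level (vertical axis) against testis level (left) and liver level (right), both as log2(FPKM + 1), for protein-coding genes (grey) and the 36 members (red); dashed lines mark 4-fold and genes beyond 10 on either axis are not drawn. Most members lie along the vertical axis, 11 being listed at 0 in testis and 27 in liver, while Penk, Tac1, Chgb, Pomc, Nmb and Chga lie further right in the testis panel (150.3 to 3.19 FPKM in testis).

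Among the opioid precursors the proenkephalin gene Penk was the exception to the brain pattern. Penk (chromosome 4, mm9 4060678 to 4065966) encodes a precursor that holds several copies of Met-enkephalin and is known from striatal neurons and from germ cells and somatic cells of the testis. It was at 71.8 FPKM (68.8 to 74.8) in brain, 150.3 FPKM (147 to 154) in testis and 0.0746 FPKM (0.00956 to 0.140) in liver. Testis was thus 2.09-fold higher than brain with intervals apart, below the 4-fold needed for a call, and the log2 difference of brain minus testis was -1.06. It stayed below 0 with the other scalings, at -1.08 with the median ratio, -0.34 with the protein-coding sum and -3.81 with the FPKM sum over all genes. Within each library the gene stood at a like place, rank 744 in brain and rank 719 in testis, but at rank 12402 in liver. Both brain and testis were called higher than liver. The testis level of Penk was 209% of its brain level, where the neuron markers reached at most 0.144%. The cells behind the testis level were not tested. An annotated noncoding gene on the opposite strand, A830012C17Rik, overlaps Penk and was at 0.0238 FPKM in brain, 0.35 FPKM in testis and listed at 0 in liver. Gene-level FPKM does not tell transcripts with different start sites apart.

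The other opioid precursors were brain genes at lower levels. Pdyn, the source of dynorphins that act on kappa receptors, was at 3.97 FPKM (3.40 to 4.53) in brain and listed at 0 in testis and liver, and was called higher in brain against both. Pnoc, the precursor of nociceptin, was at 1.70 FPKM (1.47 to 1.93) in brain against 0.174 FPKM (0.101 to 0.246) in testis and was listed at 0 in liver. Its intervals did not overlap, but its log2 difference of 1.20 for brain minus testis was under the minimum. Penk was therefore the single opioid precursor of this group above 1 FPKM in testis.

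The tachykinin genes split. Tac1, which encodes substance P and neurokinin A, was at 33.9 FPKM (30.9 to 36.9) in brain and listed at 0 in liver. In testis it was at 13.7 FPKM, marked as a low-data estimate with an interval from 0 to 21.4 FPKM. The brain value was 2.47-fold the testis value and was not called; with the FPKM sum as the scale the log2 difference of brain minus testis was -1.42, against 1.25 as deposited. Testis was not called against liver because its interval reached 0. Tac2, the source of neurokinin B, was at 9.16 FPKM (8.15 to 10.2) in brain and listed at 0 in both other organs.

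The remaining neuromodulators were low in brain and, except for Nmb, lower still elsewhere. Grp, gastrin-releasing peptide, was at 5.36 FPKM in brain against 0.0195 FPKM in testis and was listed at 0 in liver. Nts, the neurotensin precursor, was at 4.36 FPKM in brain, listed at 0 in testis and at 0.00634 FPKM in liver, and Adcyap1, the precursor of PACAP, was at 4.01 FPKM in brain and listed at 0 in both others. Grp, Nts and Adcyap1 were called higher in brain in both comparisons. Nmb, neuromedin B, a relative of gastrin-releasing peptide, was at 2.08 FPKM (1.25 to 2.91) in brain, 4.74 FPKM (3.69 to 5.78) in testis and 0.0874 FPKM (0.0129 to 0.162) in liver. As deposited, its testis interval lay above that of brain at a 2.28-fold higher value, short of a call, and testis was called higher than liver. The log2 difference of brain minus testis was -0.90 as deposited, -0.89 with the median ratio and -2.96 with the FPKM sum over all genes. With the protein-coding sum it was -0.37 and the brain and testis intervals overlapped. Gal, galanin, was at 0.574 FPKM (0.329 to 0.818) in brain against 0.177 FPKM (0.0433 to 0.311) in testis, and Nmu, neuromedin U, was at 0.0954 FPKM in brain with an interval from 0 to 0.192 FPKM. Gal was listed at 0 in liver, and Nmu in testis and liver.

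Of the 12 matched hypothalamic and neurohypophysial peptide genes, 5 were at 1 FPKM or more in brain, 3 in testis and 1 in liver. Oxt and Avp, the precursors of oxytocin and vasopressin, lie 3565 bases apart on opposite strands of chromosome 2 and had nearly equal values, 0.280 FPKM (0.0683 to 0.491) and 0.285 FPKM (0.0835 to 0.487) in brain. The intervals imply 7 fragments for Oxt and 8 for Avp in brain, against 2 for each in testis, where they stood at 0.0776 and 0.0692 FPKM with intervals that reached 0. Both were listed at 0 in liver. Hcrt, the orexin precursor of the lateral hypothalamus, was at 0.369 FPKM (0.0717 to 0.665) in brain against 0.0338 FPKM in testis, and Agrp, the appetite-raising peptide of the arcuate nucleus, was at 0.117 FPKM in brain against 0.0283 FPKM in testis, both in brain and testis from few fragments. Pmch, the precursor of melanin-concentrating hormone, was at 3.28 FPKM in brain, but this was a low-data estimate with an interval from 0 to 7.49 FPKM; the protein-coding gene Parpbp overlaps it on the opposite strand and was at 0.0539 FPKM in brain against 8.51 FPKM in testis. Trh, thyrotropin-releasing hormone, was at 0.413 FPKM (0.277 to 0.549) in brain and 0.336 FPKM (0.215 to 0.457) in testis, with overlapping intervals. Hcrt, Agrp, Pmch and Trh were listed at 0 in liver.

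Beside these low values, 7 transcription factor genes that mark the hypothalamus also stood near the floor of the brain library. Their highest value in brain was 0.0801 FPKM, for Nkx2-1, followed by Otp and Hmx3 at 0.0271 and 0.0227 FPKM. Hmx2 was listed at 0, and their summed level was 0.183 FPKM in brain, 0.0224 FPKM in testis and 0 in liver. The part of the tissue sampled in the low peptide values was not tested. Cartpt and Ucn were the members of this group called higher in brain. Cartpt, the CART precursor, was at 22.8 FPKM (21.4 to 24.1) in brain against 0.0192 FPKM in testis, and Ucn, urocortin, was at 5.38 FPKM (4.40 to 6.35) in brain against 0.216 FPKM (0.0228 to 0.409) in testis. Both were listed at 0 in liver and were called higher in brain against both organs. Crh, corticotropin-releasing hormone, was at 2.88 FPKM (2.51 to 3.25) in brain and listed at 0 in both others, just under the level a call needs.

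Pomc went the other way. It encodes pro-opiomelanocortin, the source of ACTH, the melanocortins and beta-endorphin, and in testis it is known from Leydig cells and germ cells. It was at 0.576 FPKM (0.381 to 0.770) in brain, 6.18 FPKM (5.55 to 6.81) in testis and 0.0230 FPKM (0 to 0.0496) in liver. The testis value was 10.7-fold the brain value, the log2 difference of brain minus testis was -2.19, and testis was also called higher than liver. With the protein-coding sum as the scale the log2 difference to brain was -1.82 and no longer a call. Of the 9 pituitary markers, 4 were at 1 FPKM or more in testis and none in brain. Tbx19, which activates Pomc in the pituitary and is named here after its value was seen, was at 1.26 FPKM (1.06 to 1.45) in testis and listed at 0 in brain and liver, while Pou1f1 and Fshb were listed at 0 in all 3 libraries. The summed level of the pituitary markers was 1.74 FPKM in brain, 18.7 FPKM in testis and 0.163 FPKM in liver, and 5 of 5 Leydig cell markers stood at 18.9 FPKM or more in testis, led by Insl3 (an estimate marked as failed), Cyp17a1 and Star. The part of either in the Pomc level was not tested.

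Other releasing hormones were low but not confined to brain. Gnrh1, gonadotropin-releasing hormone, was at 1.34 FPKM (0.869 to 1.82) in brain, 1.92 FPKM (1.36 to 2.48) in testis and 1.41 FPKM (1.08 to 1.75) in liver, with all 3 intervals overlapping. It was the single member at 1 FPKM or more in liver, and the intervals imply 32, 47 and 72 fragments in brain, testis and liver. The sign of its differences depended on the scaling: brain minus testis was -0.32 as deposited and 0.13 with the protein-coding sum, brain minus liver was -0.04 and 0.46, and testis minus liver was 0.27 as deposited and -0.18 with the median ratio. Ghrh, growth hormone-releasing hormone, was at 0.654 FPKM (0.315 to 0.994) in brain against 1.48 FPKM (0.943 to 2.02) in testis, with overlapping intervals, and was listed at 0 in liver. Its log2 difference of testis minus liver was 1.31 and not a call.

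Pituitary hormone genes were near or at 0 in all 3 libraries. Gh, growth hormone, was at 0.522 FPKM (0.318 to 0.727) in brain, an implied 26 fragments, and listed at 0 in testis and liver. Tshb, the beta subunit of thyrotropin, was at 0.644 FPKM (0.227 to 1.06) in testis and listed at 0 in brain and liver. Prl, prolactin, and Cga, the alpha subunit shared by the glycoprotein hormones, were listed at 0 in brain and liver, and stood at 0.0189 and 0.0576 FPKM in testis with intervals that reached 0. No member of this group was called in any comparison.

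Among 24 genes that process and package peptides, 11 (45.8%) were called higher and 1 (4.17%) lower in brain than in testis, beside a protein-coding background of 10.4% and 14.2%. Set against liver, brain was called higher for 13 (54.2%) and lower for 1 (4.17%), beside 13.7% and 4.55%. The median log2 difference of the list was 1.65 for brain minus testis and 2.40 for brain minus liver. Highest in brain were Cpe, the carboxypeptidase that trims cut peptides, at 1159.9 FPKM against 40.6 FPKM in testis and 0.134 FPKM in liver, Scg5, the chaperone of convertase PC2, at 212 FPKM against 0.434 and 0.0184 FPKM, and Pcsk1n, an inhibitor of convertase PC1, at 191 FPKM against 4.52 and 0.00453 FPKM. The convertase genes themselves, named here after their values were seen, were lower: Pcsk2 was at 36.2 FPKM in brain, 0.605 FPKM in testis and 0.00135 FPKM in liver, and Pcsk1 at 4.23, 0.501 and 0 FPKM in the same order. The gene called lower in brain than in testis was Pcsk4, the convertase of germ cells, at 0.259 FPKM in brain, 33.9 FPKM in testis and 0.439 FPKM in liver. Cpe, Pcsk4 and the tyrosine sulfotransferase gene Tpst1 (33.6 FPKM) were the highest of the list in testis, and Furin (14.2 FPKM), Tpst2 (8.20 FPKM) and Pcsk6 (7.33 FPKM), which act in the constitutive secretory pathway or outside it, in liver. Testis against liver gave 5 genes higher (20.8%) and 1 lower (4.17%), near the protein-coding background of 20.2% and 5.96%.

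**Figure D3:**
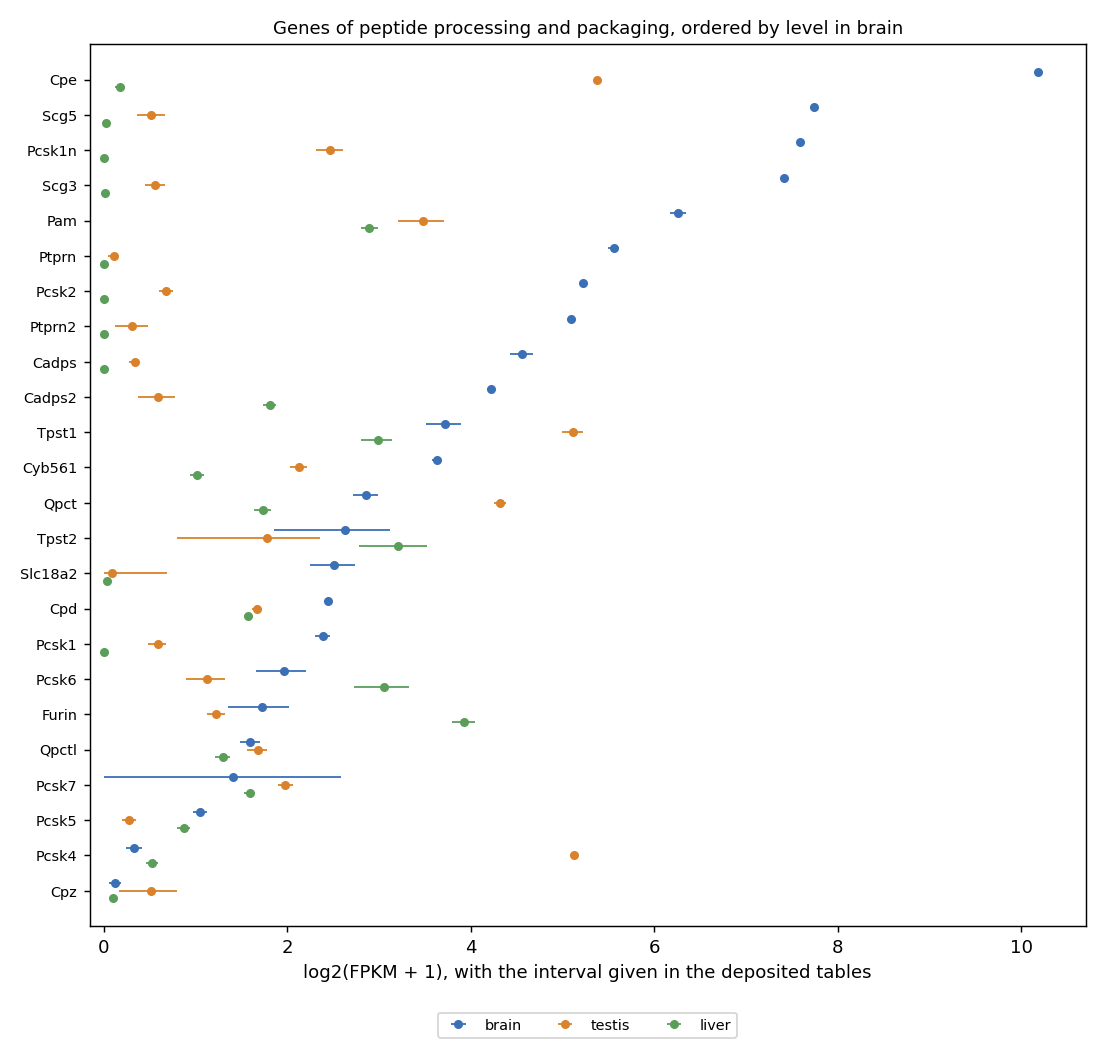
Level of the 24 processing and packaging genes in brain (blue), testis (orange) and liver (green), as log2(FPKM + 1), ordered by the brain level; points are single libraries and bars the deposited intervals. Cpe leads in brain at 1159.9 FPKM, and Pcsk4 is near the bottom of the brain order at 0.259 FPKM but at 33.9 FPKM in testis.

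Of 53 listed receptor genes for these peptides 52 were matched, and 19 were at 1 FPKM or more in brain, 5 in testis and 5 in liver. Called higher in brain than in testis were 7 (13.5%) and none lower, beside a protein-coding background of 10.4% and 14.2%. Set against liver, brain was called higher for 8 (15.4%) and lower for 3 (5.77%), beside 13.7% and 4.55%. The higher shares of brain and the lower share against liver were near the background. Highest in brain were Sort1, a sorting receptor that also binds neurotensin, at 29.6 FPKM against 34.9 FPKM in testis and 1.49 FPKM in liver, the neurotensin receptor gene Ntsr2 at 26.1 FPKM against 0.115 FPKM in testis and listed at 0 in liver, and the CRH receptor gene Crhr1 at 20.3 FPKM against 0.130 FPKM in testis and listed at 0 in liver. The 3 receptors called lower in brain than in liver were Ghr, Prlr and Avpr1a, for growth hormone, prolactin and vasopressin, at 1.76, 4.19 and 0.123 FPKM in brain, 3.41, 2.54 and 0.166 FPKM in testis and 145, 22.5 and 4.39 FPKM in liver. The same 3 genes (5.77%) were called lower in testis than in liver, near the protein-coding background of 5.96%. Only Sort1 was called higher in testis than in liver, 1 gene (1.92%) beside a background of 20.2%. The receptors of enkephalin, looked at because of Penk, were low in testis: Oprd1 was at 0.396 FPKM in brain and 0.0903 FPKM in testis, and Oprm1 at 0.179 FPKM in brain, a low-data estimate, and 0.0113 FPKM in testis. Both were listed at 0 in liver.

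Of 16 peptidase genes whose products break peptides down outside cells or in the cytosol, 2 (12.5%) were called higher and 4 (25%) lower in brain than in testis, beside a protein-coding background of 10.4% and 14.2%. In the comparison with liver 2 (12.5%) were higher in brain and 4 (25%) lower, beside 13.7% and 4.55%. The 4 lower than in testis were Ace, the angiotensin-converting enzyme, at 4.03 FPKM in brain against 111 FPKM in testis, Thop1, thimet oligopeptidase, at 6.58 against 69.0 FPKM, Ide, the insulin-degrading enzyme, at 5.96 against 35.4 FPKM, and Tpp2, tripeptidyl peptidase II, at 7.08 against 32.8 FPKM. An antisense gene at 28.5 FPKM in testis overlaps Ace, and a ribosomal protein pseudogene on the same strand, at 179 FPKM in brain and 35.2 FPKM in testis, overlaps Ide, so those values are less certain. Highest in liver were Ece1 at 80.7 FPKM, Anpep at 18.2 FPKM and Enpep at 13.9 FPKM. The aminopeptidase genes Npepps at 29.1 FPKM and Rnpep at 9.41 FPKM and Ece1 at 11.1 FPKM were the highest in brain. Testis against liver gave 3 genes higher (18.8%) and 4 lower (25%), beside 20.2% and 5.96%.

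**Figure D4:**
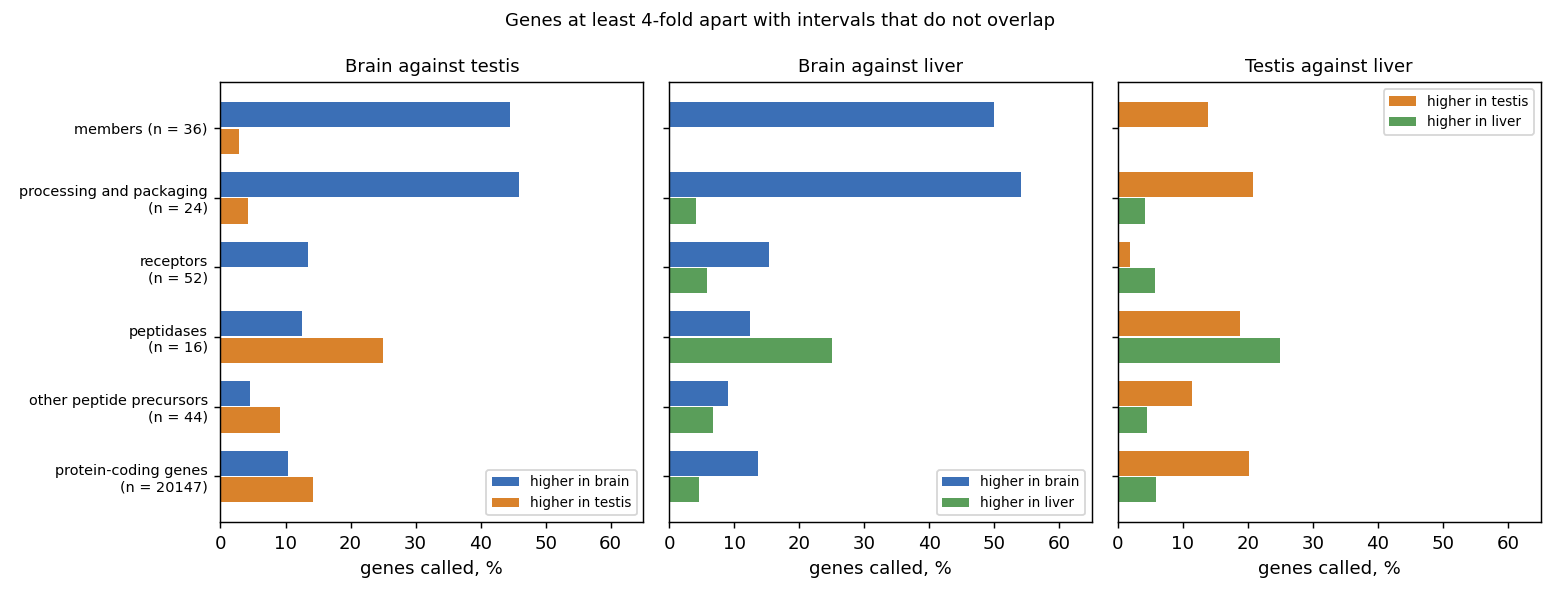
Share of genes called in each comparison, in percent, for the 36 members, 4 lists of related genes and the 20147 protein-coding genes; within a panel the upper bar of each pair is the first-named tissue and the lower bar the other. Members and processing genes have the longest brain bars (44.4% and 50% for the members), and peptidases the longest opposite bars in the brain panels.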

How the data were processed

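Per the file headers, each deposited table gives every gene an FPKM value, its lower and upper bound and a status. Cufflinks 2.0.0, TopHat 1.4.0, Bowtie 0.12.5 and the build mm9 appear in the submitters' processing notes. Which gene annotation and filters were used, and the level of the bounds, is not given in the sources used here. Libraries were read as 76-cycle single ends, per the labels' protocols.

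FPKM was used as the authors deposited it, with estimates that failed or had low data kept at their listed values. For 12 identifiers at more than 1 locus values were added. Symbols and gene classes came from GENCODE M21 by identifier, and promoters from RefSeq by symbol, both on GRCm38; gene coordinates were read from the tables (mm9) after adding 1 to each start, which matched 37 of 37 mitochondrial genes. Fragments were implied from the upper bound, taken as 2 SD above the value; 69.6%, 69.5% and 69.4% of low values in brain, testis and liver came out whole within 0.1. They describe depth only.

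Differences are log2(FPKM + 1), first-named tissue minus the other, with a minimum of 4-fold and intervals apart; the script that makes the calls was tested on simulated data. With 1 library per tissue there is no test. All 36 matched members are named. Of the lists of related genes the text names the 3 highest genes per tissue, those called higher in testis than in brain, and a few said to be chosen after their values were seen. Of the marker lists only some genes are named. The members and lists were chosen with earlier results of these data known. Alternatives were other pseudocounts, fold minimums, scalings, detection levels and filters. Python 3.11.15, numpy 2.4.6, pandas 2.3.3 and matplotlib 3.10.9 were used.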

Additional observations from a re-analysis of the deposited data

How the results depend on the processing

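No paired analysis was possible because each tissue had 1 library, and leaving out a replicate was not possible for the same reason. No called difference of a member changed sign with the 3 scalings, which cannot turn one against a library listed at 0. The scaling factors were 1.47 for brain, 0.895 for testis and 0.830 for liver with the protein-coding sum, 0.862, 0.878 and 1.45 with the median ratio, and 0.413, 2.85 and 4.37 with the FPKM sum over all genes; over genes at 1 FPKM in any library they moved the median log2 difference by 0.56, -0.02 and -2.06 for brain minus testis, 0.57, -0.49 and -2.31 for brain minus liver, and 0.05, -0.46 and -0.38 for testis minus liver. The calls of brain against testis, 16 higher and 1 lower, became 8 and 5 with the FPKM sum (1.93% and 28.4% of all genes) and 10 and 0 with a minimum of 8-fold (3.73% and 7.11%); the lower call became 2 with pseudocounts of 0.1 (16.2%) and 0.01 (18.8%) or a minimum of 2-fold (17.6%) and 0 with the protein-coding sum (9.19%). Against liver the 18 higher in brain rose to 27 and 29 at pseudocounts of 0.1 and 0.01 (16.7% and 21.5%). An 8-fold minimum gave only 12 higher (4.93%). Scaling by the FPKM sum likewise gave 12 higher (3.29%), beside 1 lower (19.6%). The 5 higher in testis than in liver became 8 and 13 with pseudocounts of 0.1 and 0.01 (23.8% and 28.4%) and 1 with 8-fold (9.45%). The median of 1.56 for brain minus testis became 3.18 and 4.34 with pseudocounts of 0.1 and 0.01, 0.47 with the FPKM sum and 2.39 over members at 1 FPKM in a library. That of 2.20 for brain minus liver became 5.21 and 8.27 with the pseudocounts, 2.66 with the protein-coding sum, 1.32 with the FPKM sum, 1.96 over estimates marked OK and 2.67 over members at 1 FPKM in a library. That of 0.09 for testis minus liver became 0.55 and 2.44 with the pseudocounts. Members detected in brain numbered 14 at 5 FPKM. In testis they numbered 16 at 0.1 FPKM, 4 at 5 FPKM and 14 by a lower bound above 0, and in liver 0 at 5 FPKM and 3 by a lower bound above 0. The cause was not tested.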

Other observations

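Peptide precursors outside the member list were also looked at. Of 44 such genes 2 (4.55%) were called higher and 4 (9.09%) lower in brain than in testis. The background was 10.4% and 14.2% over protein-coding genes, and 7.19% and 11.0% over all genes. The 2 higher, Scg3 and Pcsk1n, are also counted among the processing and packaging genes. Against liver 4 (9.09%) were higher and 3 (6.82%) lower in brain, beside 13.7% and 4.55% of protein-coding genes and 9.15% and 2.79% of all genes. The 4 called lower in brain than in testis were Ghrl, the ghrelin precursor, listed at 0 in brain and at 91.0 FPKM (79.2 to 103) in testis, Insl6, a relaxin family gene of germ cells, at 0.238 FPKM in brain against 77.5 FPKM in testis, Prok2, prokineticin 2, at 0.0324 FPKM in brain, a low-data estimate, against 37.5 FPKM in testis, and Npb, neuropeptide B, at 0.492 FPKM in brain against 8.05 FPKM in testis. In liver Ghrl was listed at 0, and Insl6, Prok2 and Npb stood at 0.0741, 0.00503 and 0.277 FPKM. Insl3 had a higher value, 299 FPKM in testis against 0.177 FPKM in brain and 0.0530 FPKM in liver, but its estimate was marked as failed with an interval from 0 in testis and it was not called.

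The highest of these precursors in liver were Hamp, the iron hormone hepcidin, at 2796 FPKM against 0.644 FPKM in brain and 0.694 FPKM in testis, Igf1 at 457 FPKM against 4.30 and 5.13 FPKM, and Agt, angiotensinogen, at 113 FPKM against 19.7 and 52.5 FPKM. The highest in brain, besides Pcsk1n, were Scg3, a granin-binding protein, at 169 FPKM against 0.475 FPKM in testis and 0.00902 FPKM in liver, and Agt. Testis against liver gave 5 genes higher (11.4%) and 2 lower (4.55%), beside 20.2% and 5.96% of protein-coding genes and 15.2% and 3.82% of all genes. Of 6 markers of adrenal chromaffin and gut endocrine cells, Pnmt was listed at 0 in brain and liver and at 0.0539 FPKM in testis, and the highest was Th at 4.34 FPKM in brain. Of the 5 matched Sertoli cell markers 1 (20%) was called lower and 0 higher in brain than in testis, beside a protein-coding background of 14.2% and 10.4%. Their median log2 difference of brain minus testis was -0.0989. The highest in testis was Defb19, at 0.354 FPKM in brain against 438 FPKM in testis. Of the 5 matched Sertoli cell markers 4 were at 1 FPKM or more in testis. Called higher in testis than in liver were 2 (40%) and lower 0, beside 20.2% and 5.96% of protein-coding genes. Amh, the lowest of the list in testis, was at 0.252 FPKM in brain and 0.341 FPKM in testis, and Sox9 at 4.83 and 2.95 FPKM. The highest value of this list in brain, of a gene not named here, was 114 FPKM.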
